A study of Homo sapiens with 6 samples.

Results

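The genes described here are 10 that set the pace of the G1 phase of the cell cycle: the D-type cyclins CCND1, CCND2 and CCND3, the E-type cyclins CCNE1 and CCNE2, the cyclin-dependent kinases CDK4 and CDK6, and the kinase inhibitors CDKN1B, CDKN1C and CDKN2B. They were found by their gene symbols, and all 10 were present among the 59653 genes of the table. RNA sequencing was performed in SK-OV3, a line of human ovarian cancer cells whose genotype is labelled wildtype. The cells were transfected with siControl, a non-targeting pool of siRNAs, or with siPVT1, a pool of siRNAs against the long non-coding RNA PVT1, and RNA was taken after 48 h, with 3 libraries for each. The comparison of siPVT1 with siControl asks which genes respond when PVT1 is reduced. It rests on a single cell line and a single pool per arm, and the labels do not say that the libraries came from separate cultures, so p-values measure only the spread between these libraries, which may be technical.

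In G1, D-type cyclins bind CDK4 or CDK6, and the active kinases phosphorylate the retinoblastoma protein, which then releases E2F transcription factors. E2F factors in turn drive E-type cyclins, which activate CDK2 and carry the cell into DNA replication. Inhibitors of the Cip/Kip family, such as the products of CDKN1B and CDKN1C, bind cyclin-kinase complexes, whereas those of the INK4 family, such as the product of CDKN2B, bind CDK4 and CDK6 alone. In ovarian carcinoma, CCNE1 is known for its amplification.

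Libraries held between 28383171 and 35059576 counts, of which the top 10 genes made up 6.88% to 8.32%. Sampling noise alone did not account for the spread within a group, since chi-square per degree of freedom was 1.75 to 5.67 among siControl libraries and 8.62 to 45.3 among siPVT1 libraries, and each was counted as 1 sample. The siPVT1 libraries thus stood further apart from each other than the siControl libraries did. PVT1, the target, had 3298, 4090.5 and 3377 normalized counts in the siControl libraries and 2349.7, 2111 and 2062 in the siPVT1 libraries, in the order of replicates 1 to 3 here and below. It fell by 0.72 ± 0.097 (SE) on the log2 scale (edgeR adjusted p = 0.000342), to a fold of 0.606. Epithelial markers gave summed normalized counts of 27145 to 30466 in siControl and 33047 to 36648 in siPVT1 over 10 genes, of which 4 rose (KRT8 and KRT18 among them) and 3 fell (KRT7, WT1 and ERBB2) by adjusted p, while the defining epithelial genes CDH1 and EPCAM averaged 27.1 and 96.7 in siControl. Of 4 endothelial markers, all 4 were higher in siPVT1, with sums of 2067 to 2110 in siControl and 8665 to 10932 in siPVT1, nearly all from CDH5. The 5 fibroblast markers summed to 127 to 137 in siControl and to 503 to 523 in siPVT1, mostly from COL1A1, with COL3A1, DCN and THY1 at or near 0. The 5 leukocyte markers summed to 31.4 to 275 and to 18.8 to 92.9, with CD3E at 0 in every library. The part of these differences in the results below was not tested, and in bulk RNA fewer cells of a type and less RNA per cell cannot be told apart.

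Of the 10 genes, 3 rose past both thresholds (edgeR adjusted p under 0.05 and a log2 fold change of 1 or more in size) and 0 fell past both. Over all 19008 genes tested, 21.5% passed both thresholds, 11.8% being higher and 9.64% lower in siPVT1, so higher genes made up 55.1% of those called, or 43.8% when libraries were scaled by total count alone. That scaling moved the all-gene median of the log2 fold change from 0.0014 to −0.15. By adjusted p alone, 6 of the 10 changed, 3 higher and 3 lower, which is near the 57.9% of all genes (29.5% higher and 28.4% lower). The groups did not overlap for 7 of the 10, near the 65.6% of all genes. The median log2 fold change of the 10 was −0.020, next to 0.0014 over all genes. The genes that rose were CCND2, CDKN1C and CDKN1B, a cyclin and the Cip/Kip inhibitors among the 10. Those that fell by adjusted p alone were CCNE2, CDK6 and CDK4. All 10 passed the filter on low counts, CDKN2B through 4 libraries and the others through all 6.

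**Figure D1:**
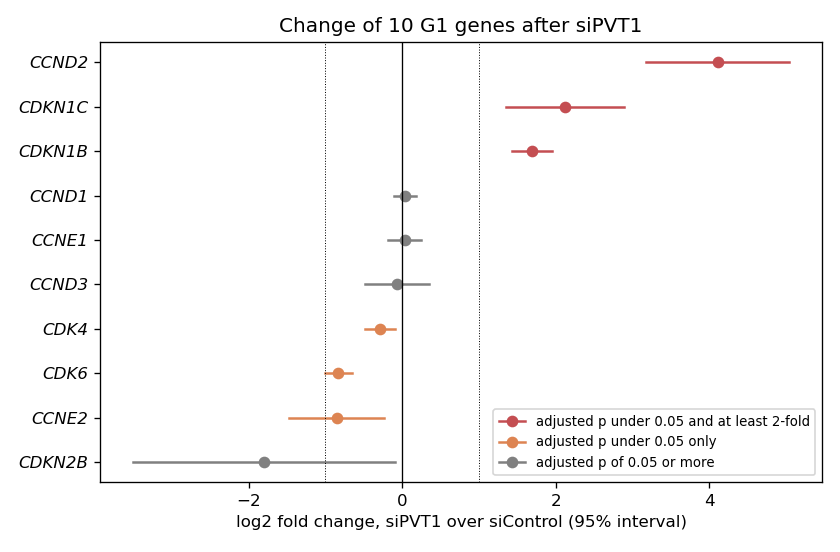
Log2 fold change of each of the 10 genes, siPVT1 over siControl, with the 95% interval from edgeR's quasi-likelihood fit to 3 libraries a group, coloured by the thresholds passed, with dotted lines at a log2 fold change of 1 in either direction. CCND2, CDKN1C and CDKN1B lie beyond 1 on the higher side, CCND1, CCND3 and CCNE1 sit around 0, and CDKN2B has the widest interval.

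The D-type cyclins behaved unequally, with a rise in CCND2 and overlapping groups for CCND1 and CCND3. CCND2 (chr12:4269771-4305353, plus strand, in GENCODE v44 on GRCh38) had 26.7, 35.4 and 32.3 normalized counts in siControl and 804, 549.6 and 283 in siPVT1. Every siPVT1 library was thus far above every siControl library, and siPVT1 replicate 1 was highest. The means were 31.5 ± 4.41 and 545 ± 261 (SD, n = 3 each). The fold from edgeR's fit was 17.2, a log2 fold change of 4.11 ± 0.404 (SE), with a 95% interval of 3.18 to 5.04 (edgeR adjusted p = 6.52e-05). CCND1 (chr11:69641156-69654474, plus strand) had 40217, 38311 and 39320.1 normalized counts in siControl and 37734, 39902 and 43061 in siPVT1. The groups overlapped, and the log2 fold change was 0.034 with a 95% interval of −0.11 to 0.18 (edgeR adjusted p = 0.675). CCND3 (chr6:41934934-42050357, minus strand) had 830.4, 795 and 859 normalized counts in siControl and 575, 767 and 1020.4 in siPVT1. The siPVT1 libraries lay on both sides of siControl, and the log2 fold change of −0.070 had a 95% interval of −0.48 to 0.34 (edgeR adjusted p = 0.760). Without siPVT1 replicate 3, CCND3 was lower by adjusted p alone, at −0.32 (edgeR adjusted p = 0.0256).

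**Figure D2:**
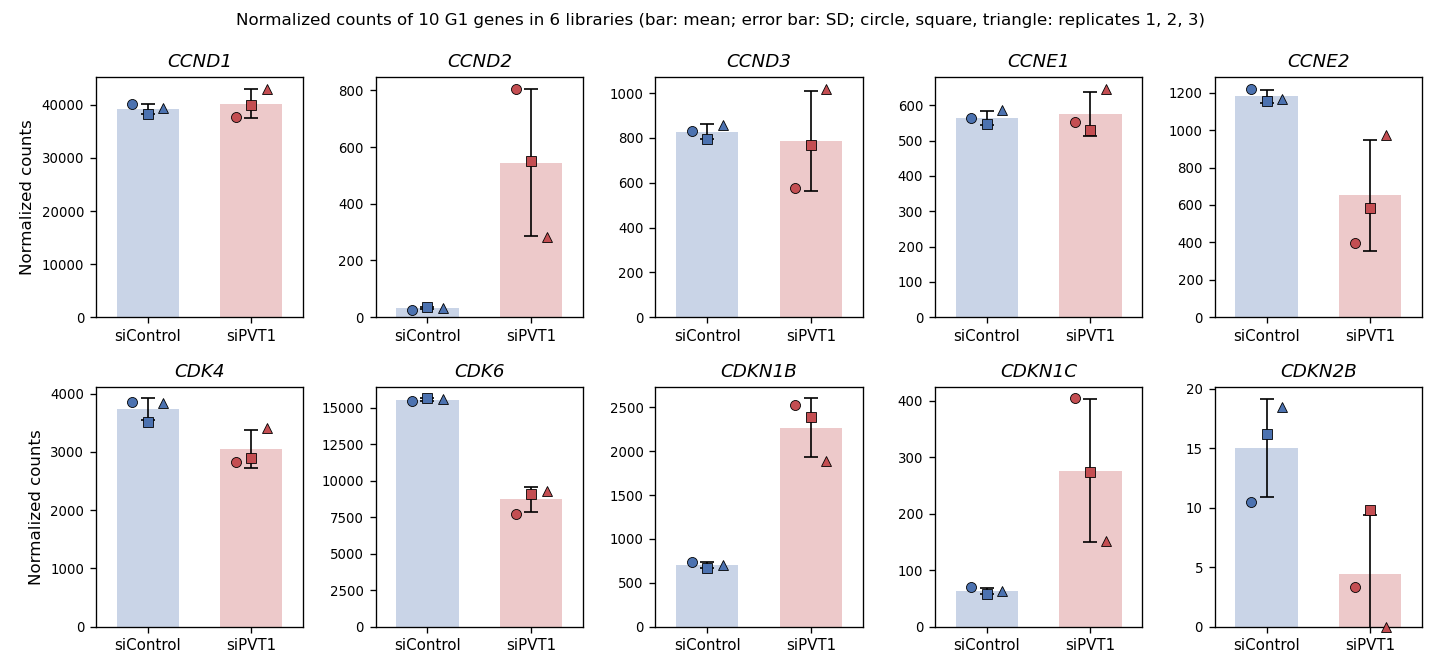
Normalized counts of each of the 10 genes in each of the 6 libraries, with bars from 0 for the mean and error bars for the SD of 3 libraries a group, and a circle, square and triangle for replicates 1, 2 and 3. siControl points lie close together for most genes, while siPVT1 points of CCND2, CCNE2 and CDKN1C spread widely, and CDKN2B is at 0 in siPVT1 replicate 3.

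The kinases that pair with D-type cyclins both fell, CDK6 by more than CDK4. CDK6 (chr7:92604921-92836573, minus strand) had 15467, 15656 and 15575 normalized counts in siControl and 7747, 9096 and 9330.4 in siPVT1. All siPVT1 libraries were below all siControl libraries, whose coefficient of variation was 0.608%, against 9.79% in siPVT1. The log2 fold change was −0.84 ± 0.077 (SE), with a 95% interval of −1.01 to −0.66 (edgeR adjusted p = 4.72e-05), and thus just short of the fold threshold. CDK4 (chr12:57747727-57756013, minus strand) had 3848, 3516 and 3833 normalized counts in siControl and 2822, 2899.8 and 3415 in siPVT1. The groups did not overlap, though siPVT1 replicate 3 came close to siControl replicate 2. The log2 fold change was −0.29 ± 0.085 (SE), with a 95% interval of −0.49 to −0.098 (edgeR adjusted p = 0.0175). The CDK4 call did not hold without siControl replicate 1 (edgeR adjusted p = 0.0604), siControl replicate 3 (0.0591) or siPVT1 replicate 2 (0.0539).

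Promoter sequences (250 bases before and 50 after a start site, from the RefSeq table for GRCh38.p14) were available for 6 of the 10 genes, in 9 promoters. Of the genes that changed by adjusted p, CDK6, CDK4 and CDKN1B had such sequences, while CCND2, CDKN1C and CCNE2 had none. Those of CDK6, CDK4 and CDKN1B are shown 5′ to 3′ because they are where transcription of these genes begins. Capitals mark matches, on either strand, to any of 5 motifs: E2F (TTTCCCGC, TTTCGCGC, TTTGCCGC or TTTGGCGC), GC box (GGGCGG), E-box (CACGTG), FOXO (GTAAACA) and CCAAT box (CCAAT).
CDK6, chr7:92836524-92836823, minus strand: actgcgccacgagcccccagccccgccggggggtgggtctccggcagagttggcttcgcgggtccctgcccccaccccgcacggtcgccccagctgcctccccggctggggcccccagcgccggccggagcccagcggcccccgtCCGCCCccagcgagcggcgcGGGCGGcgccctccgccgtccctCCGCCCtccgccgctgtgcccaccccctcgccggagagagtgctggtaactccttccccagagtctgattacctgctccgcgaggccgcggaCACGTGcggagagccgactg
CDK4, chr12:57752261-57752560, minus strand: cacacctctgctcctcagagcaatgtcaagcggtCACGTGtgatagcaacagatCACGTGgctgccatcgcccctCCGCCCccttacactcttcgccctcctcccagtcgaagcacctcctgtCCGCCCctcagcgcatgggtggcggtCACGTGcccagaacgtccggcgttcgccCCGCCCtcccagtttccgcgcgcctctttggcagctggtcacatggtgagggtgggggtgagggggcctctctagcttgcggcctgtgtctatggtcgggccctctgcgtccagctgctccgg
CDKN1B, chr12:12717118-12717417, plus strand: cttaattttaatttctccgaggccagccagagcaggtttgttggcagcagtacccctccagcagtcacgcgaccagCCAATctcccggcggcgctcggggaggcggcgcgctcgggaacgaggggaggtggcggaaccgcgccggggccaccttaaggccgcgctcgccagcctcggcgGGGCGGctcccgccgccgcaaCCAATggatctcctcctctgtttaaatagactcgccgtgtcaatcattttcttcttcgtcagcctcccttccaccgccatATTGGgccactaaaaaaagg
The CDK6 promoter held 3 GC boxes and 1 E-box, and a second CDK6 promoter held no match to any of the 5 motifs. The CDK4 promoter held 3 E-boxes, at −216, −196 and −101 from the start site, and 3 GC boxes. The CDKN1B promoter held 1 GC box and 3 CCAAT boxes, at −174, −50 and 31. Of 35116 promoters in the table, 3.31% held an E2F match, 45.0% a GC box, 7.26% an E-box, 3.42% a FOXO match and 34.6% a CCAAT box. None of the 9 promoters of these genes held an E2F match, which says only that those letters were not in the window. The matches describe sequence and are not evidence of binding, and binding was not measured.

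The Cip/Kip inhibitors CDKN1B and CDKN1C both rose, whereas the INK4 inhibitor CDKN2B was low throughout. CDKN1B (chr12:12685498-12722369, plus strand), which encodes p27, had 736, 673 and 705 normalized counts in siControl and 2529, 2388 and 1892 in siPVT1. No library of one group came near the other group. The mean was 705 ± 31.6 in siControl and 2270.0 ± 334 (SD, n = 3 each) in siPVT1, 3.22-fold higher, with a log2 fold change of 1.69 ± 0.112 (SE), a 95% interval of 1.43 to 1.94 and edgeR adjusted p = 9.53e-06. CDKN1C (chr11:2883213-2885775, minus strand), which encodes p57 and is imprinted, had 69.5, 57.6 and 62.8 normalized counts in siControl and 404, 273 and 151 in siPVT1. Every siPVT1 library was above every siControl library, and the spread in siPVT1 was wide, at a coefficient of variation of 45.8%. The log2 fold change was 2.12 ± 0.333 (SE), with a 95% interval of 1.35 to 2.88 (edgeR adjusted p = 0.000829). CDKN2B (chr9:22002903-22009305, minus strand), which encodes p15, had 11, 16 and 20 counts in siControl before normalization and 3, 9 and 0 in siPVT1. The siPVT1 libraries were all below the siControl libraries, but on so few counts the 95% interval of the log2 fold change of −1.80 ran from −3.51 to −0.094. Its edgeR adjusted p was 0.0677, and a two-sided exact permutation test gave p = 0.1, the smallest possible for 3 libraries against 3. Without a filter on low counts the edgeR adjusted p was 0.0357, and without siPVT1 replicate 2 it was 0.0163 at −3.20. Without siPVT1 replicate 3, in which it was at 0, the log2 fold change was −1.19 (edgeR adjusted p = 0.0690).

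The E-type cyclins parted, with CCNE2 lower in siPVT1 and the groups overlapping for CCNE1. CCNE2 had 1222, 1156 and 1164 normalized counts in siControl and 396, 581 and 973 in siPVT1. The groups did not overlap, but siPVT1 replicate 3 lay much nearer to siControl than siPVT1 replicate 1 did. The log2 fold change was −0.85 ± 0.268 (SE), with a 95% interval of −1.47 to −0.24 (edgeR adjusted p = 0.0245). Leaving out siPVT1 replicate 3 brought it to −1.29, past the fold threshold (edgeR adjusted p = 1.34e-05), as did scaling by total count, while leaving out siControl replicate 1, 2 or 3 or siPVT1 replicate 2 ended the call (edgeR adjusted p from 0.0574 to 0.0853). CCNE1 (chr19:29811991-29824312, plus strand) had 564, 547 and 586 normalized counts in siControl and 552, 529.9 and 647 in siPVT1. The groups overlapped, and the log2 fold change of 0.029 had a 95% interval of −0.19 to 0.25 (edgeR adjusted p = 0.809).

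Levels can be compared between genes only per length, here as normalized counts per kilobase of the longest annotated transcript. In siControl the order was CCND1 (mean level 9269 ± 225, SD, n = 3), CDK4 (2001 ± 101), CDK6 (1335 ± 8.12), CCNE2 (354 ± 10.8), CCND3 (346 ± 13.4), CCNE1 (289 ± 10.03), CDKN1B (163 ± 7.30), CDKN1C (32.7 ± 3.09), CCND2 (4.59 ± 0.644) and CDKN2B (3.90 ± 1.07). In that order the neighbours CCNE2 and CCND3, and CCND2 and CDKN2B, overlapped across libraries. CCND1 thus stood above the other cyclins by a wide margin. In siPVT1 the order was CCND1 (9493 ± 632), CDK4 (1633 ± 173), CDK6 (748 ± 73.3), CDKN1B (524 ± 77.2), CCND3 (329 ± 93.4), CCNE1 (295 ± 31.9), CCNE2 (195 ± 88.5), CDKN1C (143 ± 65.3), CCND2 (79.6 ± 38.1) and CDKN2B (1.14 ± 1.30). CDKN1B moved from rank 7 to rank 4 and CCNE2 from rank 4 to rank 7, and the other 8 genes kept their rank. The siPVT1 libraries of CCND3, CCNE1, CCNE2, CDKN1C and CCND2 overlapped with those of a neighbour in this order. With the mean length of all transcripts in place of the longest, 18 of the 20 ranks were the same, and CCNE1 and CCNE2 changed places in siPVT1.

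**Figure D3:**
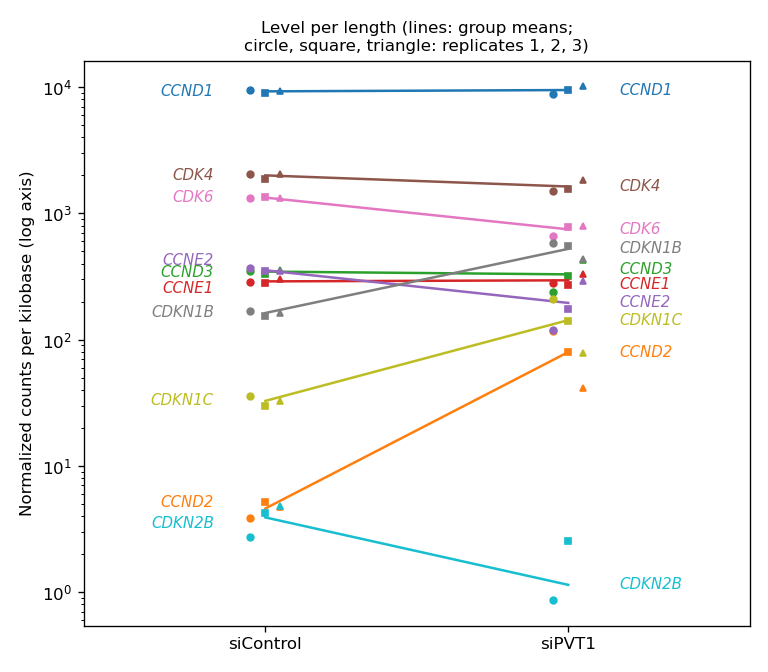
Level of each of the 10 genes, as normalized counts per kilobase of the longest transcript on a log axis, in siControl and siPVT1, with points for libraries and lines joining group means. CCND1 is highest and CDKN2B lowest in both groups, CDKN1B and CCNE2 change rank, and the 0 of CDKN2B in siPVT1 replicate 3 cannot be drawn on this axis.

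The rise of CCND2 left it a small part of the D-type cyclin message. CCND2 made up 0.0396%, 0.0551% and 0.0490% of the summed D-type level per kilobase in siControl and 1.27%, 0.818% and 0.389% in siPVT1, while CCND1 made up 96.4% and 95.9% on average. With the mean transcript length, the CCND2 share was 0.0181%, 0.0252% and 0.0224% in siControl and 0.582%, 0.375% and 0.178% in siPVT1, again without overlap. CCNE2 made up 55.1% ± 1.11 (SD, n = 3) of the E-type level in siControl and 38.6% ± 8.64 in siPVT1. The ratio of CDK6 to CDK4 level was 0.643, 0.712 and 0.650 in siControl and 0.439, 0.502 and 0.437 in siPVT1, without overlap. The summed level of CDK4 and CDK6 over that of CDKN1B and CDKN1C was 17.1 ± 0.545 in siControl and 3.75 ± 1.22 in siPVT1. All siPVT1 libraries were below all siControl libraries in this ratio. It leaves out CDKN1A, also a Cip/Kip gene, and so does not cover the whole family. CDKN1A averaged 13848 normalized counts in siControl and 13162 in siPVT1, with overlapping groups. CDKN1C made up 16.7% ± 0.691 of the level of CDKN1B and CDKN1C together in siControl and 20.6% ± 5.59 in siPVT1, and there the groups overlapped. These ratios are of RNA and not of protein, and were not tested.

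The siPVT1 libraries ranked the same way in the members that changed. In all 6 members with an edgeR adjusted p under 0.05, siPVT1 replicate 3 lay nearest to the siControl mean and siPVT1 replicate 1 farthest. Over all 11007 genes with such a p, replicate 3 was the nearest for 59.0% and replicate 1 the farthest for 54.2%. The members come from the same 3 libraries and are not independent of each other. Among the siPVT1 libraries, PVT1 itself was ordered the other way, lowest in replicate 3 (2062 normalized counts) and highest in replicate 1 (2349.7). Replicate 2, at 2111, was close to replicate 3, and a link between PVT1 and the order of the members was not tested.

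By rule, the genes with a pattern most like that of CCND2 and CDKN2B, the members with the highest and the lowest log2 fold change, were found by Euclidean distance of gene-centred log2 CPM (counts scaled to library size) over the 6 libraries. For CCND2 they were RORA, a nuclear receptor, at a distance of 0.486, STC1, the secreted glycoprotein stanniocalcin, at 0.622, and RASSF4 at 0.625, with log2 fold changes of 3.77 ± 0.271, 4.19 ± 0.203 and 3.70 ± 0.289 (SE). For CDKN2B they were TTN-AS1, GRAMD2A and TMEM100, at distances of 0.637, 0.687 and 0.740. These 3 were also counted at low values, with at most 27 counts in any library.

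Other genes of the pathway were described by counts and medians over lists. Of 4 other kinase inhibitors, 2 rose past both thresholds and 0 fell, with a median log2 fold change of 0.49. CDKN2C, which encodes p18, rose by 1.06 ± 0.106 (SE) on the log2 scale, from 168 ± 18.2 to 352 ± 13.6 normalized counts (SD, n = 3 each; edgeR adjusted p = 6.81e-05), and CDKN2D, which encodes p19, by 1.59 ± 0.116, from 97.3 ± 5.61 to 294 ± 29.3 (edgeR adjusted p = 1.42e-05). When libraries were scaled by total count, only CDKN2D of the 4 passed both thresholds. CDKN1A, which encodes p21, is also a Cip/Kip inhibitor. It had 14001, 13681 and 13862 normalized counts in siControl and 17064, 12848 and 9573 in siPVT1. The siPVT1 libraries thus lay on both sides of siControl (edgeR adjusted p = 0.744). CDKN2A had at most 24.2 normalized counts in any library.

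**Figure D4:**
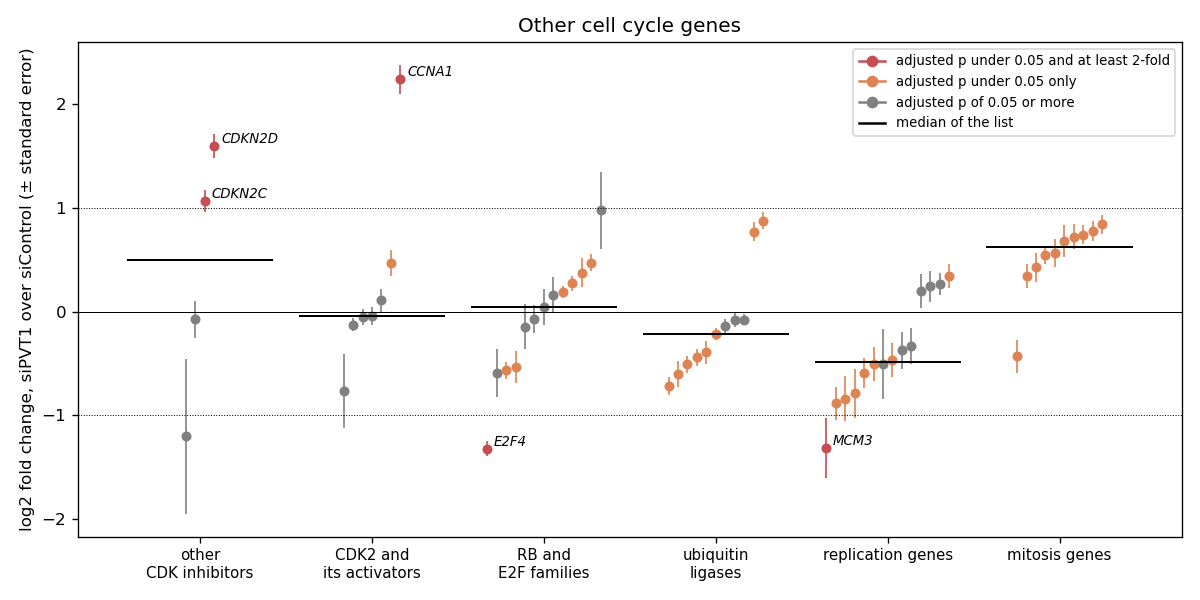
Log2 fold change, siPVT1 over siControl, of each tested gene in 6 pathway lists, a column of points per list, with SE bars, a line for the list median and dotted lines at a log2 fold change of 1 in either direction; colours mark the thresholds passed. Of the mitosis genes 9 lie above 0, most replication genes lie below 0, and the 5 genes past both thresholds are named.

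Of 13 genes of the RB and E2F families, 4 rose and 3 fell by adjusted p alone, and only E2F4, which encodes a repressor E2F, passed both thresholds, at −1.32 ± 0.075 (SE) (edgeR adjusted p = 4.67e-06). RB1, which encodes the retinoblastoma protein, was at 0.19 (edgeR adjusted p = 0.0207), and its call was lost in 5 of 12 alternatives, with an edgeR adjusted p of 0.547 under total count scaling. Of the activators, E2F1 and E2F3 were at −0.14 and −0.072 and did not pass, while E2F2 was at 0.98, from a mean of 45.7 to 89.7 normalized counts (edgeR adjusted p = 0.0510). E2F2 was called by DESeq2 (adjusted p = 0.0313) and without a filter (edgeR adjusted p = 0.0126), and passed both thresholds without siPVT1 replicate 1, at 1.29 (edgeR adjusted p = 0.00214). With total count scaling, the RB and E2F calls were 1 higher and 4 lower. Of 7 genes of CDK2 and its activators, 2 rose and 0 fell by adjusted p alone, or 1 and 2 with total count scaling, and CCNA1, a cyclin A gene, rose by 2.24 ± 0.139, from 90.1 ± 14.2 to 426 ± 42.1 normalized counts (SD, n = 3 each; edgeR adjusted p = 6.87e-06). CDC25A, which activates CDK2, had 1367, 1397 and 1379 normalized counts in siControl and 415, 644 and 1366 in siPVT1, so that siPVT1 replicate 3 fell just short of the lowest siControl library (edgeR adjusted p = 0.0974), and without that library CDC25A was lower past both thresholds. Of 11 ubiquitin ligase genes for G1 cyclins and CDKN1B, 2 rose and 6 fell by adjusted p alone (2 and 9 with total count scaling) and 0 passed both thresholds, with CKS1B at 0.77, CUL4B at 0.88, SKP2 at −0.39 and CUL4A at −0.72.

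Of 14 replication genes under E2F control, 1 rose and 7 fell by adjusted p alone, with a median log2 fold change of −0.48. With total count scaling 0 rose and 9 fell, and without siControl replicate 1, 2 or 3 or siPVT1 replicate 2, 0 rose and 4 fell. MCM3, a helicase subunit, was the only one past both thresholds, with 2470.2, 2306 and 2493 normalized counts in siControl and 592, 799.8 and 1526 in siPVT1 (log2 fold change −1.31 ± 0.292 (SE), edgeR adjusted p = 0.00505). Without siPVT1 replicate 3, 5 of the 14 passed both. RRM2, a subunit of ribonucleotide reductase, rose by 0.34, a call lost in 5 of 12 alternatives. Of 10 mitosis genes, 9 rose and 1 fell by adjusted p alone, with a median of 0.62 and none past both thresholds. BUB1, a checkpoint kinase, was highest at 0.84 and PLK1 was the one that fell, by 0.43, a call lost in 5 of 12 alternatives. The calls of AURKA and AURKB, which rose, were each lost in 5 of 12 as well. With total count scaling 7 rose and 1 fell, and without siControl replicate 1, 2 or 3 or siPVT1 replicate 2, 7 rose and 0 fell. Of all genes tested, 29.5% rose and 28.4% fell by adjusted p alone, and the lists were not tested as sets.

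Genes whose spans overlap the members on the opposite strand can share reads with them where exons also overlap and counting ignores strand. Overlap of exons was not examined, and the strand setting is not given in the sources used here. Across CCND1 lay LTO1, at −0.51 (edgeR adjusted p = 0.0285). Across CDK4 lay TSPAN31, at 0.28 (edgeR adjusted p = 0.0631), and MARCHF9, at 1.33 (edgeR adjusted p = 1.78e-05), while CDK4 itself was lower. Across CCNE2 lay INTS8, at 0.057, and NDUFAF6, which fell by 1.07 (edgeR adjusted p = 2.33e-05), so the values of CCNE2 and NDUFAF6 moved in one direction. Across CDKN1B lay GPR19, at 0.78 with at most 35 counts in any library, and across CDK6 lay CDK6-AS1, with at most 29. CDKN2B-AS1, across CDKN2B, had 2 to 8 counts, and CCND2-AS1, across CCND2, at most 2. KCNQ1OT1, a transcript of the imprinted region of CDKN1C, had 811, 1101 and 813 normalized counts in siControl and 1467, 1239 and 952 in siPVT1 (log2 fold change 0.42, edgeR adjusted p = 0.0679, under 0.05 in 5 of 12 alternatives).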

How the data were processed

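Sequenced RNA of SK-OV3 cells was analysed in 3 siControl and 3 siPVT1 libraries. Per the paper's methods, mRNA libraries were read single-end and counted over GENCODE v35. The submitters' processing notes name bcl2fastq 2.20.0, STAR 2.7.3a, Salmon 0.14.1, DESeq2 1.28.1 and GRCh38.p13. The values the authors deposited are estimated counts, given for each gene symbol in whole numbers and not normalized. The strand setting is not given in the sources used here. Salmon assigns reads of near-identical transcripts by estimation, so close paralogs are uncertain.

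Counts were used as deposited, with groups and replicate numbers taken from the labels. A gene was tested if 3 or more libraries had 5 or more normalized counts, which 19008 of 59653 genes met (25268 were at 0 in every library). TMM normalization and the quasi-likelihood test of edgeR 4.0.16 were used in R 4.3.3, with siRNA as the only term and Benjamini-Hochberg adjustment over all genes tested. Standard errors were obtained by dividing the size of the log2 fold change by the root of F, and intervals are 95%. Normalized counts are counts over TMM-scaled library size. The test was checked on simulated data. There each gene was given the same dispersion in both groups, so the wider spread of the siPVT1 libraries was not covered. GENCODE v44 on GRCh38 gave coordinates and transcript lengths, and RefSeq the promoters.

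The genes and lists were chosen with earlier results of these data known. Named genes are the 10 genes, list members past both thresholds or singled out for a count, the 3 nearest in pattern to the members with the highest and lowest log2 fold change, and PVT1. Other list members, marker genes and overlapping genes were named after their values were seen. Alternatives were DESeq2 1.42.0, its size factors in edgeR, total count scaling, no filter, filterByExpr, the replicate block, each library left out and, for levels, the mean transcript length. Depth limits CDKN2B, counted at 20 or fewer.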

Additional observations from a re-analysis of the deposited data

How the results depend on the processing

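CCND2, CDKN1B, CDKN1C and CDK6 kept their direction and their side of both thresholds in 12 of 12 alternatives. Of the 120 alternatives over the 10 genes, 105 left the direction and the side of the adjusted p threshold as they were, 7 lost that call, 3 gained it and 5 turned the direction. CCNE2 also passed the fold threshold with total count scaling and without siPVT1 replicate 3. The cause was not tested for any of these. Scaling by total count left 1 of the 4 other kinase inhibitors and raised the replication genes past both thresholds to 2, and put the share of called genes that were higher at 43.8%, against 53.0% without a filter and 55.1% as reported. It also turned CCND1 to −0.11, CCNE1 to −0.12, TFDP1 to −0.10, CDK2 to −0.041 and CDKN2B-AS1 to −0.0077. With each library left out in turn, the genes past both thresholds ranged from 3507 to 4239, the share that were higher from 50.9% to 60.7%, the 10 genes past both from 3 to 4 and those by adjusted p alone from 4 to 7. The pathway genes past both ranged from 5 to 10, the RB and E2F genes from 1 to 2 (2 without siPVT1 replicate 1), the CDK2 genes from 1 to 2 and the replication genes from 1 to 5 (the upper value of both without siPVT1 replicate 3). Log2 fold changes that turned ranged from −0.033 to 0.064 for CCND1, −0.32 to 0.098 for CCND3, −0.079 to 0.072 for CCNE1, −0.32 to 0.095 for CDKN1A, −0.45 to 0.059 for E2F1, −0.27 to 0.041 for E2F3, −0.067 to 0.31 for E2F8, −0.22 to 0.19 for TFDP1, −0.051 to 0.20 for CDK2, −0.11 to 0.0074 for CDK7, −0.055 to 0.32 for TK1 and −0.040 to 0.57 for CDKN2B-AS1. Same-numbered libraries did not deviate together (r = −0.041, 0.038 and 0.0037), so the numbers were not used to pair the samples. A low r cannot show that same-numbered samples were handled apart. With the replicate block, 3924 genes passed both thresholds, 3862 of them shared with the reported ones, and the same 3 and 6 of the 10 genes were called.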
